A study of Caenorhabditis elegans with 2 samples.

Results

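Homeobox genes outside the LIM, Hox, TALE and CUT classes were described as places where CEH-14, itself a LIM homeobox protein, was or was not recovered. The list names genes by their homeobox class, no measured value enters the rule, and it held 55 of the 19985 protein-coding genes of the annotation; all 55 were matched by symbol. The samples were whole hermaphrodite late embryos of Caenorhabditis elegans strain OP315, taken 5 hours after synchronization by egg bleaching. The strain carries CEH-14 fused at its C-terminus to a GFP-FLAG tag, and sonicated chromatin was precipitated with an antibody to GFP. There was 1 group of 2 biological replicates, which share the same tagged line, and no control library was analysed here. Because whole embryos were used, a gene bound in a few cells cannot be told apart from a gene that is not bound, and the labelled tissue cannot be checked against markers in peak lists.

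Homeobox genes encode transcription factors that bind DNA through a homeodomain, many of them at sites with a TAAT core. In the worm they are known for fixing the identity of neurons, often in combinations that differ from neuron class to neuron class, and many of them act on their own genes or on those of other homeobox factors. CEH-14 is known for its part in several sensory neurons and interneurons. The list spans the paired-like (PRD) genes, the NK-like, even-skipped, caudal, engrailed and other genes of the ANTP class, the sine oculis and POU genes, a zinc finger homeobox gene and an HNF-class gene. Of the 55 genes, 26 were placed in the ANTP class, 14 in PRD, 4 in the sine oculis class, 2 in POU and 1 each in the zinc finger and HNF classes, and 7 were left unplaced. The classes come from general knowledge of the genes and are unsure for divergent ones, such as ceh-7, ceh-62 and ceh-63.

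Sequence is shown for the strongest places at these genes, as 50 bases either side of the summit on the plus strand of the WBcel235 assembly (ce11 coordinates), 5′ to 3′, from RefSeq. The set holds the peaks on the authors' reproducible list, named IDR peaks for the irreproducible discovery rate, which scores how alike the replicates rank a peak. It also holds the further entries among the 5000 strongest with TAATTA or with TAATTG on either strand. Places at zfh-2 and ceh-5, and 1 at dve-1 that overlaps an untranslated region, are not printed. Capitals mark every match of TAATTA, which reads the same on both strands, of TAATTG and its reverse complement CAATTA, and of GAGAGA and its reverse complement TCTCTC.
ceh-58, upstream peak near the start (chrII:10369768-10369868): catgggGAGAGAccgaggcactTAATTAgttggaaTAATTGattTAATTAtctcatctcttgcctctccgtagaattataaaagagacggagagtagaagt
ceh-58, distal upstream peak (chrII:10373730-10373830): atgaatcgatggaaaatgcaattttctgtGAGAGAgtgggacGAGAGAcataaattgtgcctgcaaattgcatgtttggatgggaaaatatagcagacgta
ceh-58, entry beside the distal peak (chrII:10373929-10374029): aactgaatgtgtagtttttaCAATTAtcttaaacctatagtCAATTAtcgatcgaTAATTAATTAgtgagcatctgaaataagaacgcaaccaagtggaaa
cog-1, upstream peak (chrII:14900398-14900498): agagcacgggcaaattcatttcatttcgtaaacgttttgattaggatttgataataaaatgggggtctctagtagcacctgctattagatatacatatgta
ceh-62, upstream peak (chrII:10804498-10804598): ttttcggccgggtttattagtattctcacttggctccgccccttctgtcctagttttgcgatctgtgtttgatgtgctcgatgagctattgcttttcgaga
ceh-24, upstream peak (chrV:13808611-13808711): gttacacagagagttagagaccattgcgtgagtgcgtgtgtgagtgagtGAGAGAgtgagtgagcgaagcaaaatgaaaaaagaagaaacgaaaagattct
unc-4, upstream entry (chrII:9901082-9901182): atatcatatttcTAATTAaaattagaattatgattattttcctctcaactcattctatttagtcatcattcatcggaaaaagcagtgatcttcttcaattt
vab-7, intron entry (chrIII:10921764-10921864): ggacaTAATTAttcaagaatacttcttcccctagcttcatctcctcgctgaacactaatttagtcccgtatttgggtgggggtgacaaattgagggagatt
ceh-18, intron entry (chrX:3851978-3852078): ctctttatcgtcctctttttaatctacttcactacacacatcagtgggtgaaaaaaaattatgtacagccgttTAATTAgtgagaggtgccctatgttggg
alr-1, entry inside the gene (chrX:11124608-11124708): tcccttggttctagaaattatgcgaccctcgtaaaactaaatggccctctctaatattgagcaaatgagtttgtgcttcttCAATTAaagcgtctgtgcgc
The stretch near the start of ceh-58 held TAATTA at 2 places with TAATTG between them, and GAGAGA at 1. The entry beside the distal peak of ceh-58 also held TAATTA at 2 places, which overlap each other, and CAATTA at 2. The stretches at cog-1 and ceh-62 held none of these hexamers.

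Strong peaks were few close to the starts of these genes, and about as frequent in their wider surroundings as at other genes. A summit of the 1681 IDR peaks lay within 1000 bases of a transcript start for 1 of 55 members, ceh-58 (1.82%, Wilson 95% interval 0.322 to 9.61%), against 6.83% of the other 19930 protein-coding genes. This count depends on the window: it was 3 with 2000 bases, against 9.58% of other genes, and 4 (7.27%, against 7.32%) with each summit counted only for the nearest start. From 5000 bases upstream through the gene body, 7 of 55 had an IDR summit (12.7%, interval 6.30 to 24.02%), against 13.7% of other genes. The 7 were ceh-58, zfh-2, ceh-57, ceh-5, cog-1, ceh-62 and ceh-24. In both windows the share of other genes lay inside the members' interval. No test of the list was made, and the intervals cover counting error only.

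Weaker entries of the pooled list lay at these genes more often than at others by count, but this did not hold alike in both replicates. The pooled relaxed list, which also keeps regions at background level, had 21766 entries. An entry lay within 1000 bases of a start for 32 of 55 members (58.2%, interval 45.03 to 70.3%), against 42.1% of other genes. It lay from 5000 bases upstream through the gene body for 46 of 55 (83.6%, interval 71.7 to 91.1%), against 70.3%. Among the 5000 strongest pooled entries the members were at the background, with 9 of 55 near a start (16.4%, against 15.8%) and 17 of 55 in the wider window (30.9%, against 30.7%). Among the 10000 strongest they were above it, with 24 of 55 (43.6%, interval 31.4 to 56.7%, against 25.5%) and 36 of 55 (65.5%, interval 52.3 to 76.6%, against 47.3%). The list of replicate 1 alone gave 72.7% in the wider window (interval 59.8 to 82.7%), against 70.8%. Near a start it gave 52.7% (interval 39.8 to 65.3%), against 41.6%. In both cases the share of other genes lay inside the members' interval. Members also had longer windows and more annotated starts, as given further below.

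**Figure D1:**
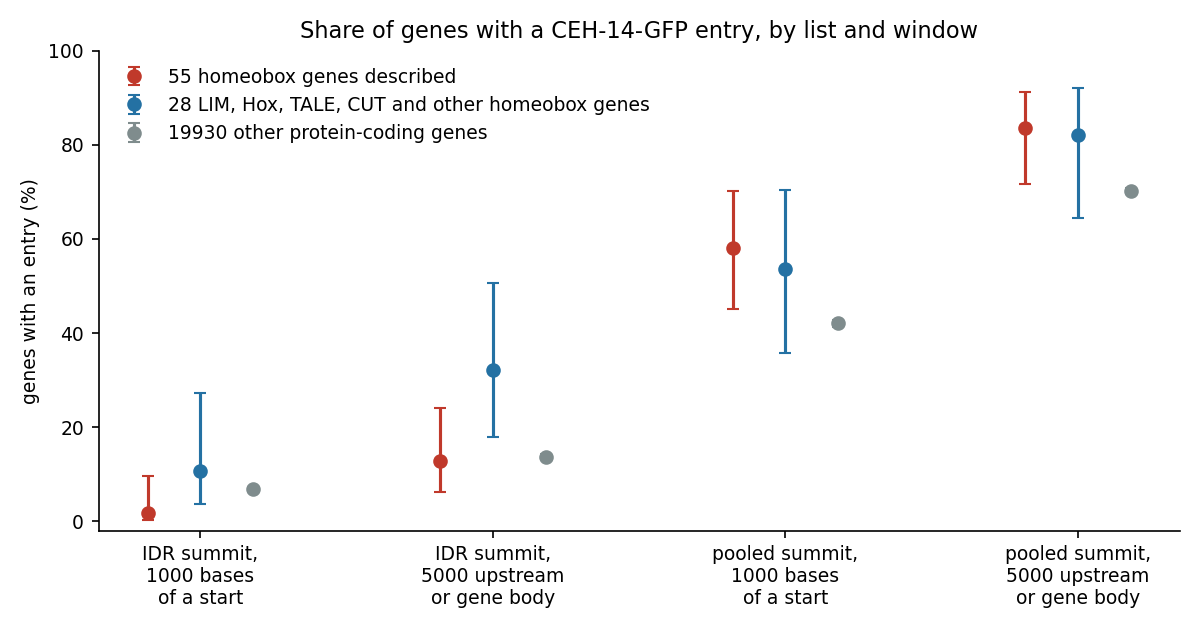
Share of genes (%, vertical axis) with a CEH-14-GFP entry for the IDR and pooled lists and both windows (horizontal axis); points are shares and bars Wilson 95% intervals, in red for the 55 members, blue for 28 other homeobox genes and grey for other protein-coding genes. The 55 members sit at 1.82% and 12.7% in the IDR list and at 58.2% and 83.6% in the pooled list, against 6.83%, 13.7%, 42.1% and 70.3% of other protein-coding genes.

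Most of the members' entries were weak, and ranks 5001 to 10000 held a larger share of them than of other entries. The 46 members with an entry held 142 pairs of gene and entry, made of 138 distinct pooled entries, since ceh-57 and ceh-58 share 4. Of the 138, 8 (5.80%) were IDR peaks, against 7.69% of the other 21617 nuclear entries. Ranks 1682 to 5000 held 19 (13.8%, against 15.3%), ranks 5001 to 10000 held 45 (32.6%, against 22.9%), and ranks above 10000 held 66 (47.8%, against 54.1%). The 45 entries of ranks 5001 to 10000 lay at 27 different members. The authors' signal value falls to 22.4 at the end of the pooled list, where its median is 31.1, and how many of these weak entries are background is not known.

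The strongest signal at any member lay far upstream of ceh-58, a gene whose class was left unplaced. The peak on chromosome II at 10373552 to 10374007 had its summit 4183 bases upstream of the start, in intergenic sequence. No other protein-coding gene had a start nearer than that of ceh-57 at 6484 bases. The peak's pooled signal value was 119.0 with rank 600. Replicate 1 gave it 47.5 with rank 892 and replicate 2 gave it 73.9 with rank 448. Each list has its own signal scale, so only the ranks can be set side by side. An overlapping entry with rank 2294 and signal value 62.9 had its summit 199 bases away, and it was met by the same entry of each replicate, so that the pair counts as 1 place.

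Close to its start ceh-58 had a further IDR peak, the only member peak within 1000 bases of a start. It lay on II at 10369590 to 10370045, with its summit 221 bases upstream, a pooled signal value of 99.9 and rank 897. Replicate 2 ranked it 591 with 66.1, and replicate 1 ranked it 1839 with 34.4. This peak also falls in the window of ceh-57, the next gene downstream on the same strand, whose start is 2522 bases away. Between the 2 IDR peaks, the pooled list held further entries with ranks 1755, 3819 and 4382, and the entry of rank 1755, with signal value 71.5, is the nearest member entry below the IDR peaks. In all, 7 entries fell in the window of ceh-58 and 7 in that of ceh-57. The summit of rank 897 is the place with the paired TAATTA letters shown above.

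In zfh-2, which encodes a zinc finger homeodomain protein, the IDR peaks lay inside the gene. They are on chromosome I at 813845 to 814300 and 814047 to 814502, with summits 10705 and 10907 bases from the 5′ end, in an intron. The nearest annotated start of the gene lay 1366 and 1568 bases from these summits. Their pooled signal values were 105.4 with rank 795 and 78.0 with rank 1478. They overlap, and both were met by the same entries of replicate 1 (rank 625, signal value 55.4) and replicate 2 (rank 1173, signal value 49.4), so they count as 1 place. The gene is 31398 bases long with 6 annotated starts, the longest of the members, and held 20 pooled entries. Of these, 1 with rank 2654 lay 137 bases upstream of the gene's 5′ end.

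The peak assigned to ceh-5, an ortholog of the vertebrate Vax genes, lay nearer to another gene. Its summit (I, 9722123 to 9722578, in an exon of a non-coding gene) was 4818 bases upstream of ceh-5 but 365 bases from a start of eat-16, which encodes a regulator of G protein signalling. It had a signal value of 99.2 with rank 922 and overlapped a stronger pooled peak of rank 220 whose summit lay 201 bases away, outside the window of ceh-5. The replicate entries that matched it had rank 160 in replicate 1 and 288 in replicate 2, both higher than its pooled rank. Whether they belong to the stronger overlapping peak was not tested.

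The remaining 3 members with an IDR peak had it upstream. All were placed in the ANTP class, though for ceh-62, a divergent gene, the placement is unsure. In cog-1, the Nkx6 ortholog known for the left and right difference of the ASE taste neurons, the peak (II, 14900220 to 14900675) lay 2045 bases upstream, with a signal value of 89.3 and rank 1132. Replicate 1 ranked it 1800 with 34.7 and replicate 2 ranked it 1039 with 51.9. In ceh-62 the peak (II, 10804320 to 10804775) lay 1189 bases upstream, with a signal value of 79.2 and rank 1439, and with ranks 2197 and 1231 in replicates 1 and 2. A second upstream entry of ceh-62, 3034 bases from the start, had rank 2212. In ceh-24, an NK-2 family gene known in pharyngeal and vulval muscle, the peak (V, 13808433 to 13808888) lay 4570 bases upstream and 1424 bases from a start of swan-1. It had a signal value of 75.5 with rank 1575, the weakest IDR peak at a member, and ranks 3773 and 1282 in replicates 1 and 2.

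Replicate 2 ranked most of these peaks higher. Of the 7 distinct replicate 1 and replicate 2 rank pairs behind the 8 IDR peaks, only those of zfh-2 and ceh-5 ranked higher in replicate 1. Whether other IDR peaks also ranked higher in replicate 2 is not given here. When the 1681 strongest entries of replicate 2 stood in for the IDR list, the same 7 members had a summit in the wider window (other genes 13.5%). With the 1681 strongest of replicate 1, ceh-58, zfh-2 and ceh-5 had one there (other genes 13.4%). In that list no member had one within 1000 bases of a start (other genes 6.65%).

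**Figure D2:**
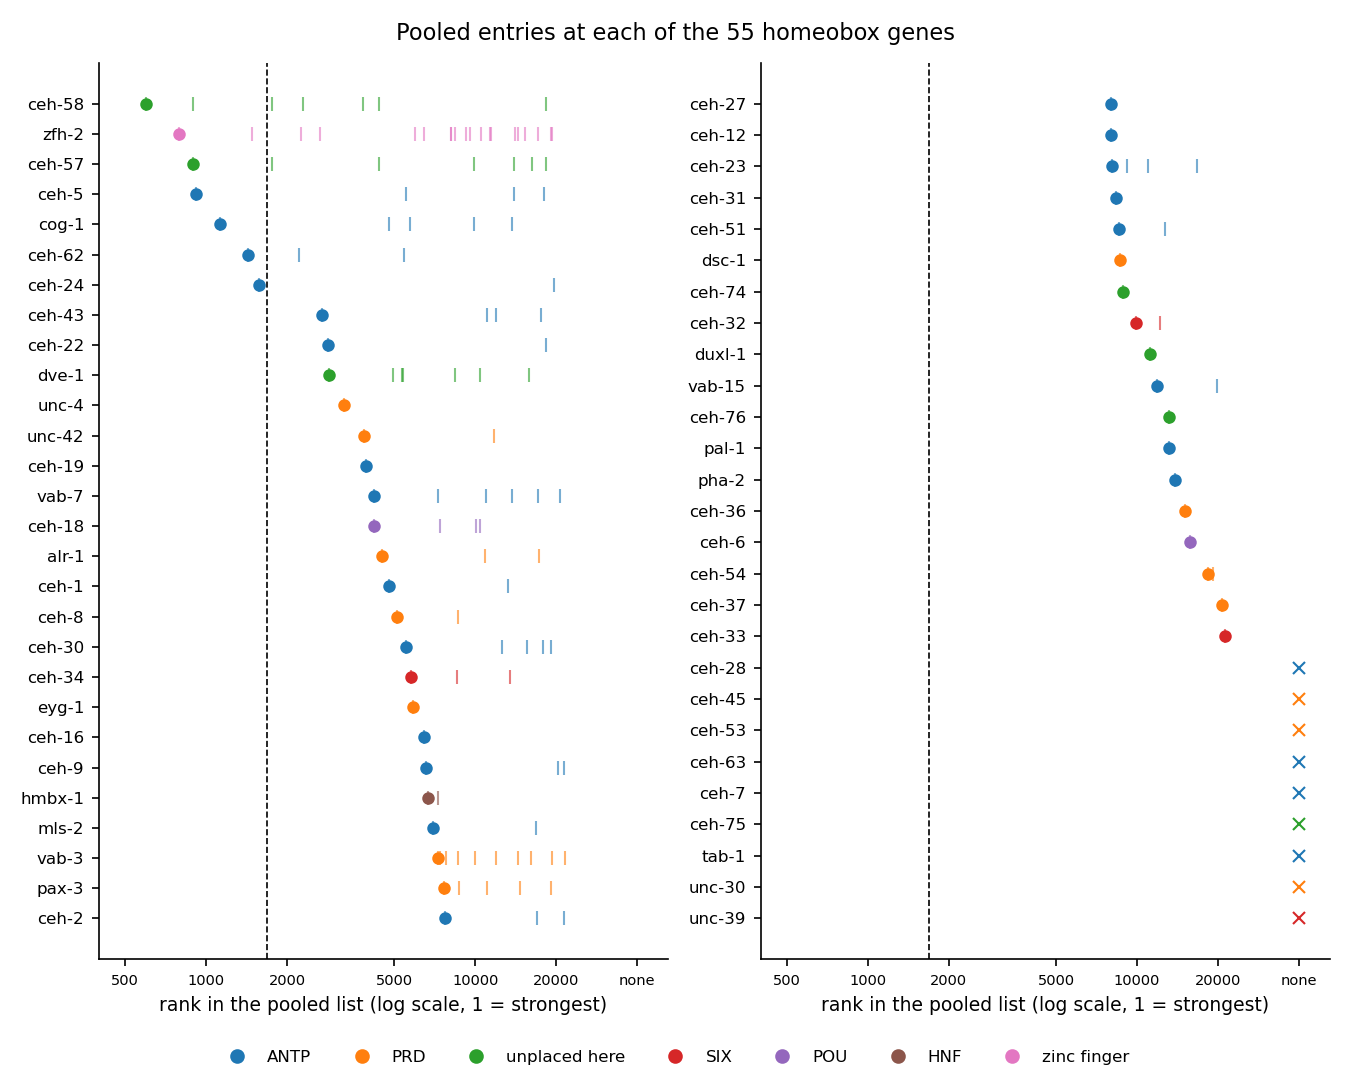
Rank of each pooled entry (horizontal log axis, 1 = strongest) for each of the 55 members (vertical axis, split over both panels), coloured by homeobox class (the sine oculis class under its usual short name); circles are each member's strongest entry, ticks its other entries, crosses members with no pooled entry, and the dashed line the last IDR peak at rank 1681. The circles run from rank 600 for ceh-58 to 21188 for ceh-33, and 9 members have a cross.

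Below the IDR peaks, 10 members had an entry among the 5000 strongest. These were, in order of rank, ceh-43, ceh-22, dve-1, unc-4, unc-42, ceh-19, vab-7, ceh-18, alr-1 and ceh-1. The Distal-less ortholog ceh-43 had an entry of rank 2697 (signal value 57.7) 1048 bases upstream, just outside the 1000-base window, with ranks 3870 and 2398 in replicates 1 and 2. In ceh-22, an NK-2 gene of pharyngeal muscle, the entry of rank 2833 (56.3) lay in a coding exon 157 bases from an annotated start, with ranks 7133 and 3405. In dve-1, known for its part in the mitochondrial unfolded protein response, the entry of rank 2877 (55.8) lay 41 bases from a start, with ranks 7194 and 2674, and 7 entries fell in the window.

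The next in rank among these 10 were unc-4 and unc-42, followed, after ceh-19, by vab-7. The unc-4 gene, which holds VA motor neurons apart from VB, had a single entry of rank 3246 (52.8), 756 bases upstream, and the replicates differed, with rank 2230 in replicate 1 and 10897 in replicate 2. The unc-42 gene, which acts in command interneurons and sensory neurons, had an entry of rank 3864 (48.7) 157 bases upstream, with ranks 4492 and 7266. The even-skipped ortholog vab-7, known in DB motor neurons and the tail, had an intron entry of rank 4217 (46.8), with ranks 9256 and 2579, and 6 entries in all, all in introns, with 5 inside the gene and 1 upstream of it. In alr-1, the aristaless ortholog, the entry of rank 4514 (45.5) lay 962 bases inside the gene, in an exon of a non-coding gene, with ranks 5332 and 8027.

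The other 3 of these 10 genes were ceh-18, ceh-19 and ceh-1. The POU gene ceh-18, known in the gonadal sheath, had an intron entry of rank 4224 (46.8) with ranks 6065 and 6333, the closest pair of replicate ranks among these 10. The entry of ceh-19 (rank 3946, signal value 48.2) lay 1874 bases upstream but 19 bases from a start of frpr-10, in a coding exon. The entry of ceh-1, an NK-1 ortholog, had rank 4768 (44.3), lay 1245 bases from a start of nhr-45 and was met in replicate 2, with rank 2216, but not in replicate 1.

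The next 5 members by rank were ceh-8, ceh-30, ceh-34, eyg-1 and ceh-16. The ortholog of the Rx genes, ceh-8, had an intron entry of rank 5147 (42.9), with ranks 9893 and 5071. The BarH gene ceh-30, known for protecting male CEM neurons from cell death, had 5 entries, the strongest with rank 5543 (41.6) and 5 bases from a start. The strongest entry of the sine oculis gene ceh-34, known in pharyngeal neurons, had rank 5771 (40.9), lay 1478 bases from the start of its neighbour ceh-33, and was met only in replicate 2, with rank 4749. In eyg-1 the entry of rank 5896 (40.4) lay 174 bases inside the gene, with ranks 17671 and 4387. The entry of the engrailed ortholog ceh-16 had rank 6454 (38.8), lay 111 bases from a start of C13G5.2, and was met only in replicate 1, with rank 2536.

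A further 24 members had pooled entries that were weaker still. Their strongest ran from rank 6595 (signal value 38.4) for ceh-9 to rank 21188 (22.7) for ceh-33. By class they were ceh-9, mls-2, ceh-2, ceh-27, ceh-12, ceh-23, ceh-31, ceh-51, vab-15, pal-1 and pha-2 of the ANTP class, vab-3, pax-3, dsc-1, ceh-36, ceh-54 and ceh-37 of PRD, ceh-32 and ceh-33 of the sine oculis class, the POU gene ceh-6, the HNF-class gene hmbx-1, and ceh-74, duxl-1 and ceh-76. Among them vab-3, the Pax6 ortholog that shapes the head, had 10 entries with ranks from 7254 to 21652, and pax-3 had 5 with ranks from 7678. The caudal ortholog pal-1, a regulator of posterior cell fate, had 1 entry of rank 13164 (28.7). The Otx genes ceh-36 and ceh-37, known in the AWC, ASE and AWB sensory neurons, had 1 each, of ranks 15061 and 20602, and the window of ceh-36 held no entry of either replicate. The single entry of ceh-33 lay 27 bases from a start of C10G8.8.

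In the wider window 83.6% of members had a pooled entry, against 70.3% of other genes. No pooled entry was listed in either window of the remaining 9 members. They were unc-30, the Pitx ortholog that specifies GABAergic D-type motor neurons, unc-39, a sine oculis gene, tab-1, the Bsx ortholog, ceh-28, known in the M4 pharyngeal neuron, and ceh-7, ceh-45, ceh-53, ceh-63 and ceh-75. For unc-30, unc-39 and ceh-75 no summit of a replicate list lay in these windows either. The other 6 had 1 or 2 weak replicate entries, the strongest of rank 8335 at ceh-63 and 8748 at ceh-53, both in replicate 2. The stretch between the pooled summits on either side of these windows ran from 9972 bases at ceh-63 to 49463 bases at ceh-28. Whether entries could be called across those stretches is not known.

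Several members held a series of entries along the gene. At least 5 pooled entries lay in the window of 9 of 55 members (16.4%), against 8.08% of other genes. These were zfh-2 with 20, vab-3 with 10, dve-1, ceh-57 and ceh-58 with 7 each, vab-7 with 6, and ceh-30, cog-1 and pax-3 with 5 each. Overlapping entries were counted singly here, at members and at other genes alike, so an entry is not always a separate place. At ceh-30 the entries of ranks 12558, 17812 and 19117 overlap in a chain. Overlapping entries were also counted at zfh-2, vab-3, ceh-57, ceh-58 and vab-7. The shares with overlapping entries merged were not computed. Windows of members were longer, with a median of 7875 bases against 7024 for other genes, and members had on average 1.91 annotated starts against 1.49. Counted per length, the members' windows held 277 pooled summits per Mb against 221 per Mb in the windows of other genes, and 16.1 IDR summits per Mb against 17.3. Gene length and the number of starts were not adjusted for otherwise.

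**Figure D3:**
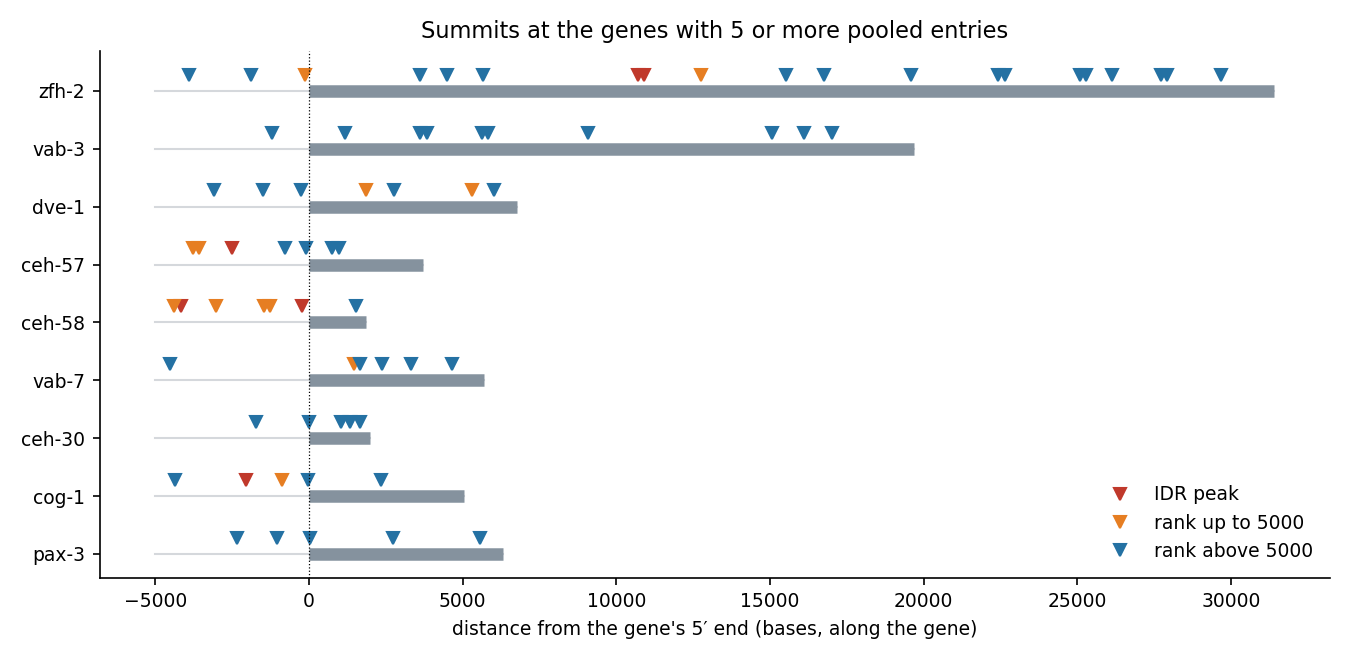
Positions of pooled summits (triangles) along the 9 members with at least 5 entries, in bases from the gene's 5′ end, with the gene as a thick bar and 5000 bases upstream as a thin line; red marks IDR peaks, orange entries of rank up to 5000 and blue weaker ones. The strong entries of ceh-58 lie upstream, and the IDR peaks of zfh-2 lie inside the gene, 10705 and 10907 bases from its 5′ end. Their distances to the nearest annotated start of zfh-2, not drawn, are 1366 and 1568 bases.

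Entries at members were met in the replicates about as often as entries elsewhere. At a reciprocal overlap of 50%, 61 of 138 (44.2%, interval 36.2 to 52.5%) were met in both replicate lists, against 43.7% of other nuclear entries. Replicate 2 alone held 41 (29.7%, against 24.1%), replicate 1 alone held 28 (20.3%, against 23.9%), and 8 (5.80%, against 8.30%) were met in neither. Among the 5000 strongest pooled entries, 25 of 27 were met in both (92.6%, against 91.7%), and the other 2, at ceh-1 and dve-1, were met in replicate 2 alone. The pooled list derives from the same alignments, so these shares describe the lists and do not test agreement.

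**Figure D4:**
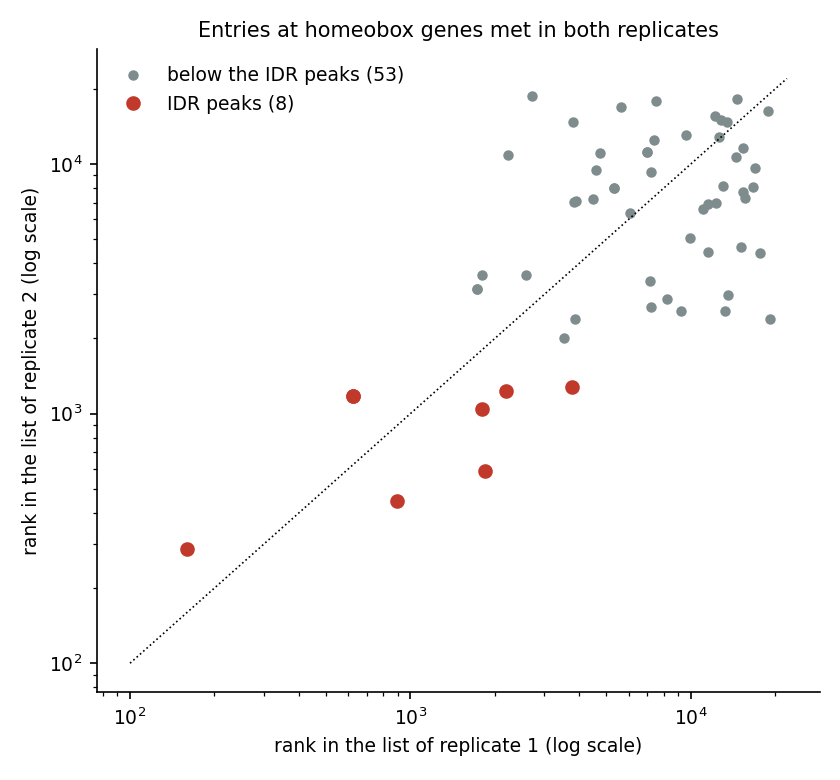
Rank in the list of replicate 1 (horizontal log axis) against rank in that of replicate 2 (vertical log axis) for the 61 member entries met in both; red points are the 8 IDR peaks (2 of zfh-2 coincide), grey points the other 53, and the dotted line marks equal ranks. Most red points lie below the line, which means a higher rank in replicate 2, and the grey points scatter on both sides.

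Exons of non-coding genes held more of the members' entries than of others by count, while for introns the share of others lay inside the members' interval. Entries at the same gene are not independent, and zfh-2 alone held 20. Of the 138, 49 (35.5%, interval 28.01 to 43.8%) had the summit in an intron, against 31.2% of other entries, and 15 (10.9%, interval 6.70 to 17.2%) in an exon of a non-coding gene, against 5.21%. The 1000 bases upstream of a gene held 25 (18.1%, against 23.2%), other intergenic sequence 20 (14.5%, against 15.5%), coding exons 20 (14.5%, against 18.8%) and untranslated regions 9 (6.52%, against 6.06%). Of the 8 IDR peaks, 4 were intergenic beyond 1000 bases (50%, interval 21.5 to 78.5%, against 11.8% of the other nuclear IDR peaks), 2 in an intron and 1 in the 1000 bases upstream (12.5%, interval 2.24 to 47.1%, against 48.3%). In 25 of the 142 pairs (17.6%) a start of another protein-coding gene was nearer to the summit than that of the member. The same share over other genes is not given here. A tRNA, snoRNA or snRNA gene lay within 200 bases of 3 entries, at ceh-2 and ceh-43, and of no IDR peak of a member. Of all 1681 IDR peaks, 216 lay near such a gene, so that with 8 member peaks their absence says little.

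Of the hexamers of the kind that homeodomain proteins bind, TAATTG with its reverse complement was more frequent at the members' entries than at others. For TAATTA alone the difference was smaller. Of the 138 entries, 26 held TAATTG or CAATTA no more than 50 bases from the summit (18.8%, interval 13.2 to 26.2%), against 8.50% of the other 21617 nuclear entries (interval 8.14 to 8.88%). TAATTA, the hexamer planned as the main measure, lay there in 16 (11.6%, interval 7.26 to 18.005%), against 8.62%, a share inside that interval. Either of them lay there in 39 (28.3%, interval 21.4 to 36.3%), against 15.9%. GAGAGA or TCTCTC lay in 12 (8.70%, interval 5.04 to 14.6%), against 11.5%, though among the 8 IDR peaks it lay in 4 (50%, interval 21.5 to 78.5%), against 25.7% of the other nuclear IDR peaks. TAATTG or CAATTA lay in 2 of the 8 (25%, interval 7.15 to 59.1%), against 6.86%, and TAATTA in 1 (12.5%, interval 2.24 to 47.1%), against 5.83%. For both hexamers the other IDR peaks thus had a lower share than the other pooled entries. These shares were not tested, and members' entries share genes, so that they are not independent.

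The entries with TAATTG or CAATTA were spread over 18 members, with 4 each at zfh-2 and dve-1, 2 each at cog-1, ceh-57 and ceh-58, and 1 each at the other 13. Entries with TAATTA lay at 14 members, and entries with either at 25. Without zfh-2 the share with TAATTG or CAATTA was 18.6% of 118 entries. In the list of replicate 1 it was 20 of 124 (16.1%, interval 10.7 to 23.6%, against 8.24%) and in that of replicate 2 it was 21 of 139 (15.1%, interval 10.1 to 21.99%, against 8.55%). By rank, 6 of 27 member entries among the 5000 strongest had it (22.2%, against 7.32%), 8 of 45 in ranks 5001 to 10000 (17.8%, against 9.001%) and 12 of 66 below (18.2%, against 8.79%). By place, it was met in 9 of 25 entries in the 1000 bases upstream (36%, interval 20.2 to 55.5%, against 9.07%) and in 1 of 20 in coding exons (5%, against 5.598%). For TAATTA the same ranks gave 5 of 27 (18.5%, against 7.52%), 3 of 45 (6.67%, against 8.96%) and 8 of 66 (12.1%, against 8.94%). The same places gave 4 of 25 upstream (16%, against 9.01%) and 0 of 20 in coding exons (against 4.17%).

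The members' windows as a whole were also somewhat richer in these letters. Cut into 101-base stretches end to end, they held TAATTG or CAATTA in 9.95% of 4905 stretches, against 8.11% of 904000 in the windows of other genes, and TAATTA in 5.97% against 4.70%. Windows were alike in GC, with 35.98% and 35.53%. The summit stretches had 41.3 ± 9.57% GC at members (SD over 138 entries) and 40.8 ± 10.6% elsewhere (21617 entries). Among summits with over 40% GC, 13 of 75 at members had TAATTG or CAATTA (17.3%, interval 10.4 to 27.4%), against 4.41% elsewhere, and among the others 13 of 63 (20.6%, interval 12.5 to 32.2%), against 13.1%. A match describes the letters in the stretch and is not a mapped binding site of CEH-14.

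**Figure D5:**
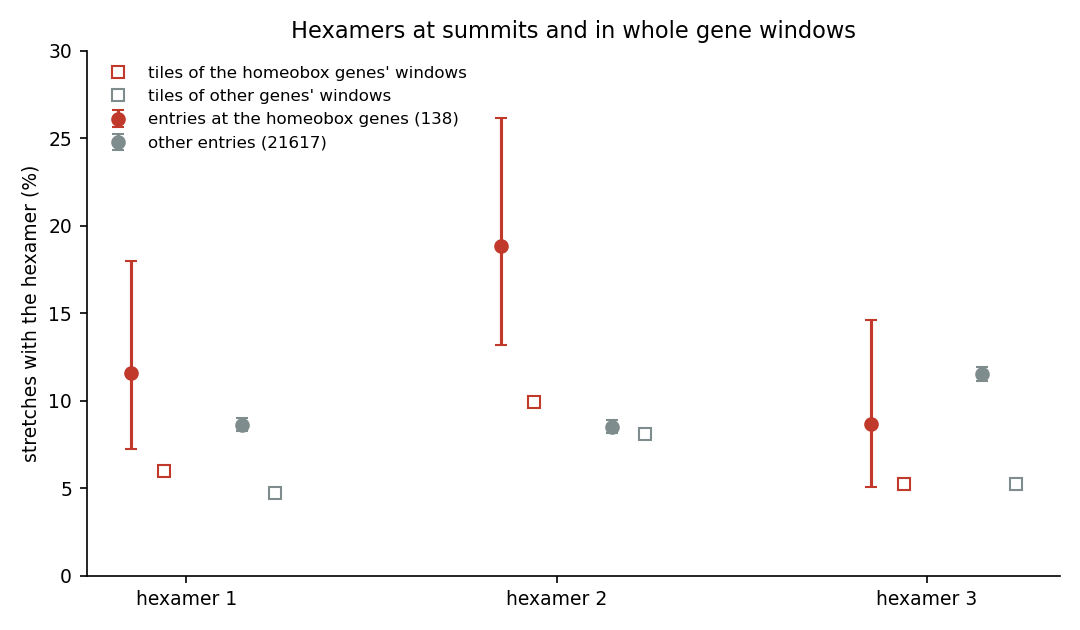
Share of 101-base stretches (%, vertical axis) that hold TAATTA (hexamer 1), TAATTG or its reverse (hexamer 2) and GAGAGA or its reverse (hexamer 3), for stretches centred on pooled summits (circles, bars Wilson 95% intervals) and for stretches tiling the genes' windows (squares), at the 55 members in red and elsewhere in grey. At hexamer 2 the members' entries stand at 18.8%, against 8.50% of other entries and 9.95% of the tiles of the same genes.

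By homeobox class, IDR peaks in the wider window were met at 4 of 26 ANTP genes (15.4%, interval 6.15 to 33.5%), against 13.7% of other protein-coding genes. The unsure ceh-62 is among them, and at ceh-5 and ceh-24 another gene's start is nearer to the summit. Peaks were also met at zfh-2 and at 2 of the 7 unplaced genes, ceh-58 and ceh-57, the latter only through a peak shared with ceh-58. None was met at the PRD genes (0 of 14, upper limit 21.5%), the sine oculis genes (0 of 4, 48.99%) and the POU genes (0 of 2, 65.8%). These limits are wide, and the classes were not compared by a test. In the pooled list, 22 of 26 ANTP genes (84.6%), 11 of 14 PRD genes (78.6%), 3 of 4 sine oculis genes and both POU genes had an entry in that window, against 70.3% of other genes. By chromosome, 4 of the 10 members on II had an IDR summit there (13.4% of other genes on II), against 0 of the 16 on X (13.6%), 1 of the 12 on V (8.41%) and 2 of the 9 on I (19.5%). The 5 members on III and the 3 on IV had none (19.01% and 12.6%). The members counted on II include ceh-57, which has only the peak it shares with ceh-58.

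The 28 LIM, Hox, TALE, CUT and remaining homeobox genes had IDR peaks in the wider window at 9 (32.1%, interval 17.9 to 50.7%). The share of all protein-coding genes outside the 55 was 13.7%, which lies below this interval. The interval overlaps that of the 55 members, and neither difference was tested. CUT genes had 4 of 6 and Hox genes 3 of 6, among them ceh-39, ceh-21, ceh-38 and ceh-48, and egl-5, nob-1 and php-3. Neighbouring genes share peaks here too, as ceh-21 and ceh-39 share the peak of rank 1403, and nob-1 and php-3 that of rank 659. Of the TALE genes unc-62 had one, with rank 346, stronger than any at the 55 members, and of the LIM genes lim-7 had one, with rank 1496. In the pooled list, 23 of the 28 (82.1%) had an entry in that window, against 83.6% of the 55 and 70.3% of the protein-coding genes outside the 55.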

How the data were processed

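Whole late embryos with GFP-tagged CEH-14 were studied by chromatin immunoprecipitation and sequencing in 2 biological replicates. Per the deposited sample records, a relaxed list for each replicate and for both pooled derives from their alignments and 1 further file, and the IDR peaks derive from relaxed lists. The aligner and caller, and how the IDR was cut, were not given in the sources used here. Entries carry a signal value set by the authors and deposited with each list; scales differ between lists, and the value ranked and described entries. The score column is constant in the files the authors deposited and was not used. The lists held 1681 (IDR), 21766 (pooled), 21217 (replicate 1) and 19577 (replicate 2) entries; read depth is unknown.

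The ce11 lists were read with Ensembl release 115 gene models and the RefSeq sequence of WBcel235, whose chromosome lengths no entry passed; the ce10 lists were not used here. The 1681 IDR peaks were the strongest pooled entries. Ranks follow the signal value, coordinates are 1-based, and a summit was assigned to the first that applied of coding exon, UTR, non-coding exon, intron, 1000 bases upstream and other intergenic. Intervals are Wilson 95% intervals and cover counting error only. No p-values were computed. The members, homeobox lists and hexamers were chosen with earlier results of these data known. Named genes were members with an IDR peak, the next 15 by pooled rank, members without an entry, other genes whose start was nearer, and genes of the other homeobox lists with an IDR summit near a start. The other 24 members are named to account for all; details given for some of them, other homeobox genes with an IDR summit only in the wider window, and the sequences beyond the IDR peaks were chosen after their values were seen. The window procedure was checked on simulated summits, with Python 3.11.15, pandas 2.3.3 and statsmodels 0.14.6.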

Additional observations from a re-analysis of the deposited data

How the results depend on the processing

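The count of members with an IDR summit near a start (1 of 55, other genes 6.83%) was 3 with 2000 bases (other genes 9.58%). It was 4 with each summit counted only for the nearest start, and 0 among the 840 strongest IDR peaks (other genes 3.75%). It was 1 with 500 bases (other genes 5.13%) and without peaks near small RNA genes (other genes 6.35%). At the nearest start the members stood at 7.27% against 7.32% of other genes. Left out in turn, the replicates gave 0 (without replicate 2, other genes 6.65%) to 1 (without replicate 1, other genes 6.60%). The count in the wider window (7 of 55, other genes 13.7%) was 3 with 2000 bases upstream (ceh-58, ceh-62 and zfh-2, other genes 9.48%). It was 4 where no other start was nearer (other genes 6.70%) and 2 among those 840 (other genes 7.54%). With 10000 bases upstream it was 10 (other genes 19.9%). With a replicate left out it was 3 (without replicate 2, other genes 13.4%) to 7 (without replicate 1, other genes 13.5%). Members with a pooled entry near a start numbered 9 among the 5000 strongest entries (other genes 15.8%), and 17 in the wider window (other genes 30.7%). Near a start, the lists of replicates 1 and 2 each gave 29 (52.7%, other genes 41.6% and 39.8%). In the window they gave 40 (72.7%, other genes 70.8%) and 47 (85.5%, other genes 69.4%). Entries met in both replicates were 32.6% with summits within 100 bases (30.6% elsewhere) and 92.6% among the 5000 strongest (91.7% elsewhere). The share with TAATTA was 21.01% within 100 bases (15.1% elsewhere), 28.3% with TAATTG added (15.9% elsewhere) and 18.5% among the 5000 strongest (7.52% elsewhere). Leaving out zfh-2, chosen after seeing the data, gave 12.7% (8.62% elsewhere). The cause of these moves was not tested. No paired analysis was possible because there is 1 group. The number of entries and the unknown read depth limit every share.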
